A study of Mus musculus with 21 samples.

Results

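Cxcr2, its close relative Cxcr1 and the mouse chemokines that bind them were followed through the epidermis of mice in which the transcription factor genes Tfap2a and Tfap2b were targeted. The 7 genes, of 49315 gene identifiers in the files, were chosen by name as receptors and as ELR chemokines. The choice was made with the counts of the comparison at 6 months in view, so the members' values in that comparison are given as a description, without a test. The series held 21 samples in 7 groups of 3, made from epidermal sheets. Every gene was listed at 0 in 13 of the 15 files from 3-week-old mice, and the 8 files with counts held 11318181 to 17746284 counts each. A pair of groups could be compared, both at 6 months of age. One was labelled control-strain specific, with the genotype WT, and the other was labelled K14CreTfap2afl/flTfap2bfl/fl, a double knockout whose libraries are called dKO-labelled below. Counts were also present in 2 libraries from 3-week-old mice labelled K14CreTfap2bfl/fl, without a control of the same age among the libraries analysed here. The K14Cre transgene expresses Cre recombinase from a keratin 14 promoter in basal keratinocytes. Cells of the sheet that do not descend from such cells keep their floxed alleles. The labels do not say whether the controls carried floxed alleles or Cre.

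CXCR2 is a G protein-coupled receptor best known from neutrophils, which follow gradients of its ligands into injured or infected tissue. The ligands are small secreted CXC chemokines that carry the amino acid motif Glu-Leu-Arg, abbreviated ELR, before the first cysteines. Keratinocytes, fibroblasts, endothelial cells and macrophages make them in response to cytokines that act through NF-kB. CXCR2 has also been described on keratinocytes at wound edges, where its loss delays closure.

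The genes lie in 2 clusters, and the sequences before their start sites are shown because the cytokine-driven ligands share an NF-kB site there. Cxcr2 and Cxcr1 are neighbours on chromosome 1, and the 5 ligand genes lie together on chromosome 5. RefSeq promoter windows on GRCm38.p6, from 250 bases before to 50 after the start site, were found for 6 of the 7 genes. The letters GGANTTTCC, searched on both strands as a form of the NF-kB (kB) site, occurred in 412 of 32851 such windows (1.25%). The windows of Cxcl1, Cxcl2 and Cxcl3 were among them, with matches that begin 70, 96 and 72 bases before the start site. The 80-base stretches around these sites, all on the plus strand, read as follows, with the bases of the match in capitals (Cxcl1 at chr5:90891155-90891234, Cxcl2 at chr5:90903783-90903862, Cxcl3 at chr5:90786009-90786088).
Cxcl1: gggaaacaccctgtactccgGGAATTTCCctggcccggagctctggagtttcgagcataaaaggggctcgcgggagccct
Cxcl2: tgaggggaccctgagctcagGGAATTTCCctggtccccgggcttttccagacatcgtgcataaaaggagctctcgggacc
Cxcl3: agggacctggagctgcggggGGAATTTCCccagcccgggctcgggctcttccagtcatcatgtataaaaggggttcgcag

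The window of Cxcr2 (chr1:74153744-74154043, plus strand, GRCm38.p6) is shown because this gene had the largest difference among the members. It held no match to GGANTTTCC, nor to GCCNNNGGC, a form of the AP-2 site that occurred in 16.6% of all windows, nor to TGANTCA, a form of the AP-1 site that occurred in 7.81%. None of the 6 windows held a match to GCCNNNGGC on either strand.
Cxcr2: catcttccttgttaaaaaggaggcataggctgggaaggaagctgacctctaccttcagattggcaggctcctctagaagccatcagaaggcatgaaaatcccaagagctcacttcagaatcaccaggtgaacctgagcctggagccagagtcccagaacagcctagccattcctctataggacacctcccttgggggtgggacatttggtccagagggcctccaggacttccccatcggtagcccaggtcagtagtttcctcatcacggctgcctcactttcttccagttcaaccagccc

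Some libraries stood apart before any comparison. Control replicates 1 and 2 had counts over odorant and vomeronasal receptor genes, which are mostly silent outside sensory tissue, at 1.61 and 3.19 per kb of exon, against 0.0970 to 0.195 in the other 6 libraries. Scaled to exon length, this density gives a background count for each member that is printed beside its control values. Of the 3-week libraries, replicate 1 held 185.0 CPM (counts per 1000000 counts of the library) of the endothelial gene Cdh5 and 122.6 CPM of Pecam1, against 0 and 0.320 CPM in replicate 2. Transcripts of both targeted genes were present in the dKO-labelled libraries. For Tfap2a they held 229, 213 and 309 CPM against 165, 140 and 210 CPM for the controls, and for Tfap2b 53.8, 57.2 and 56.9 against 57.3, 86.6 and 71.0 CPM. The 2 libraries labelled Tfap2b knockout held 44.9 and 71.7 CPM of Tfap2b. Neither difference at 6 months passed the test used below (edgeR adjusted p 0.118 and 0.111), and counts over a whole gene do not show a deleted exon. The keratinocyte markers were abundant in all 8 libraries, with 13160 to 23098 CPM summed over 10 genes. The labels number the samples without saying that each came from its own animal, so p-values measure the spread between these samples, which may be technical.

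Cxcr2 transcripts were close to absent from the control epidermis and abundant by comparison in all 3 dKO-labelled libraries. Cxcr2 (ENSMUSG00000026180, chromosome 1, 74153989 to 74161246, plus strand, GRCm38) held 6, 3 and 5 counts in control replicates 1, 2 and 3. It held 634, 416 and 450 counts among dKO-labelled libraries. In CPM these were 0.498, 0.265 and 0.326 against 45.9, 28.4 and 25.4. The lowest of the dKO-labelled libraries lay far above the highest control, and replicate 1 of them was the highest of all. The summed counts, 1500 against 14, gave a ratio of 89.7 (95% exact conditional interval 53.3 to 165, which covers counting error only). The log2 fold change fitted by edgeR, dKO-labelled libraries over controls, was 5.98 (SE 0.37), against a median of -0.035 over the 17755 genes tested.

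Some of the few control counts of Cxcr2 are of the size of the background. The receptor-gene density scaled to its exon length gives 4.90, 9.73 and 0.449 counts for control replicates 1, 2 and 3, more than the count itself in replicate 2. In control replicate 3, with little background, the 5 counts lay above it. With this background subtracted from every library the fitted log2 fold change was 6.73. With control replicate 3 as the only control it was 6.15. The 2 libraries labelled Tfap2b knockout held 13 and 11 counts of Cxcr2 (1.00 and 0.879 CPM), above each 6-month control and far below each dKO-labelled library.

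Cxcr1 encodes the sister receptor, which in the mouse answers to fewer of the ligands, and it stayed at a low level. Cxcr1 (ENSMUSG00000048480, chromosome 1, 74191785 to 74194631, minus strand) held 2, 4 and 0 counts among controls and 16, 8 and 5 counts among dKO-labelled libraries. These were 0.166, 0.353 and 0 CPM against 1.16, 0.545 and 0.282 CPM, so the groups overlapped. Both control values above 0 lay under the background of 2.40 and 4.76 counts. The ratio of the summed counts was 4.05 (95% exact conditional interval 1.65 to 11.9, counting error only), and Cxcr1 did not pass the filter on low counts (edgeR's filterByExpr with a minimum count of 10). Both libraries labelled Tfap2b knockout held 0 counts, which allows up to 0.231 and 0.240 CPM. How reads that map to both paralogs were counted is not given in the sources used here. Per kb of exon, Cxcr2 was at 15.1, 9.31 and 8.32 CPM and Cxcr1 at 0.777, 0.366 and 0.189 CPM in dKO-labelled replicates 1, 2 and 3. Replicate 1 was the highest in both.

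The 5 ligands did not follow the receptor, and for each of them the groups overlapped at 6 months. Summed over the 5 genes, the controls held 3.74, 5.21 and 2.15 CPM and the dKO-labelled libraries 5.79, 0.682 and 6.14 CPM. The lowest value of all 6 libraries was thus in dKO-labelled replicate 2, whose Cxcr2 level was between those of its group's other 2 libraries.

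Cxcl1, also called KC, is a main neutrophil attractant of mouse skin. Cxcl1 (ENSMUSG00000029380, chromosome 5, 90891241 to 90893115, plus strand) held 13, 22 and 28 counts in the controls, where background accounts for 3.02, 5.98 and 0.276, and 29, 1 and 50 counts among dKO-labelled libraries. In CPM these were 1.08, 1.94 and 1.82 against 2.10, 0.0682 and 2.82. Of the latter, replicates 1 and 3 lay above all controls and replicate 2 below them. The ratio of the summed counts was 1.06 (95% exact conditional interval 0.755 to 1.504, counting error only), and the fitted log2 fold change was -0.023 (SE 0.88).

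Cxcl2, also called MIP-2, is induced with Cxcl1 in many settings. Cxcl2 (ENSMUSG00000058427, chromosome 5, 90903871 to 90905938, plus strand) was at 1.25, 0.795 and 0.326 CPM among controls, from 15, 9 and 5 counts over a background of 3.33, 6.60 and 0.304. It held 2.75, 0.409 and 1.69 CPM, from 38, 6 and 30 counts, in the dKO-labelled libraries. As for Cxcl1, replicates 1 and 3 lay above every control and replicate 2 did not. The ratio of the summed counts was 2.14 (95% exact conditional interval 1.37 to 3.41, counting error only). The fitted log2 fold change was 0.85 (SE 0.79), and 1.89 with control replicate 3 as the only control.

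Cxcl3 (ENSMUSG00000029379, chromosome 5, 90786103 to 90789600, plus strand) is a close relative of Cxcl1 and Cxcl2. It held 4, 16 and 0 counts in the controls, against a background of 5.63, 11.2 and 0.515 counts, and 12, 0 and 24 counts among dKO-labelled libraries. These were 0.332, 1.41 and 0 CPM against 0.869, 0 and 1.35 CPM, again with replicate 2 the lowest of its group. The fitted log2 fold change was 0.26 (SE 1.36). It was 1.54 without control replicate 2 and 2.75 with control replicate 3 as the only control, and with the background subtracted the gene no longer passed the filter.

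Cxcl5 and Ppbp were near the limit of detection. Cxcl5 (ENSMUSG00000029371, chromosome 5, 90759360 to 90761624, plus strand), also called LIX, held 9, 5 and 0 counts in the controls, over a background of 3.00, 5.95 and 0.274, and 0, 0 and 2 in the dKO-labelled libraries. The summed counts were 8.36-fold higher in the controls (95% exact conditional interval 1.92 to 75.8, counting error only), and all 14 control counts came from replicates 1 and 2, the libraries with the high background. Ppbp (ENSMUSG00000029372, chromosome 5, 90768518 to 90770063, plus strand), the platelet basic protein from which the ligand NAP-2 is cut, held 4, 7 and 0 against 1, 3 and 3 counts, with a control background of 1.74, 3.46 and 0.160. A count of 0 allows up to 0.195 CPM in control replicate 3 and up to 0.217 and 0.205 CPM in dKO-labelled replicates 1 and 2. Neither gene passed the filter.

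Of the 7 members, 4 passed the filter on low counts and 3 (Cxcr1, Cxcl5 and Ppbp) did not. Cxcr2, with 6, 3 and 5 counts in the controls, passed it only through the dKO-labelled libraries. No test result is given for the members. Of all genes tested, 14.9% passed an edgeR adjusted p of 0.05, 6.26% as higher and 8.59% as lower. Cxcr2 was the only one of the 7 in which the groups did not overlap, where 22.5% of all genes tested had every dKO-labelled library above every control. Since this contrast chose the members, nothing is read from this separation.

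**Figure D1:**
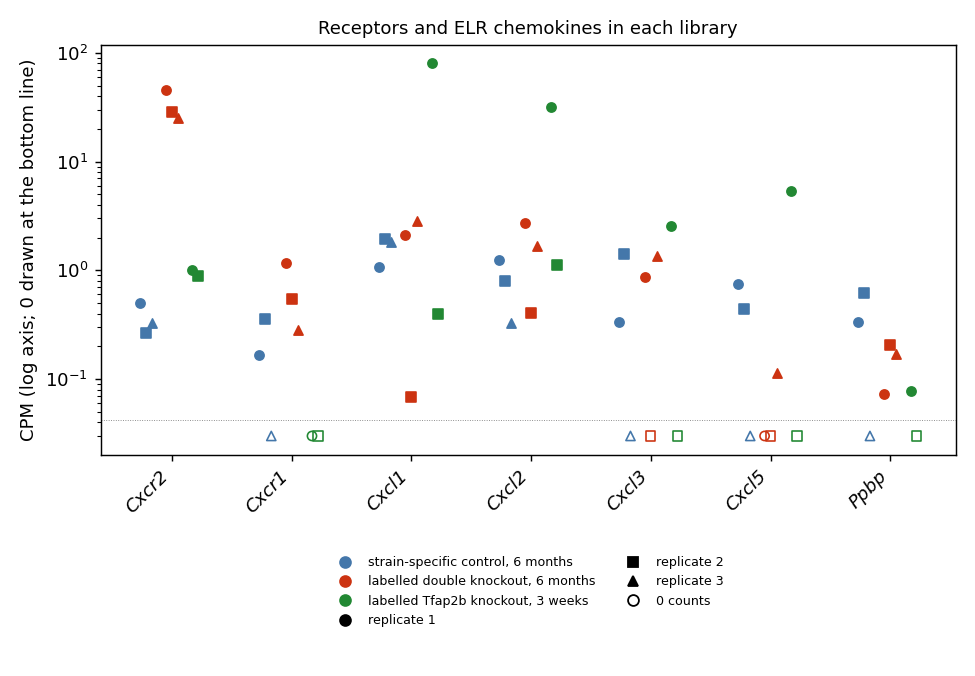
Level of each receptor and ligand in CPM (log axis), 1 point per library, with colour for the group, shape for the replicate and open symbols for 0 counts. Cxcr2 separates the dKO-labelled libraries (25.4 to 45.9 CPM) from the controls (0.265 to 0.498 CPM), while Cxcl1, Cxcl2, Cxcl3 and Cxcl5 are highest in replicate 1 labelled Tfap2b knockout at 3 weeks.

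Compared per exon length, ligand levels were low beside Cxcr2 in the dKO-labelled libraries only. In the controls the order of the means was Cxcl1 (0.862 CPM per kb), Cxcl2 (0.381), Ppbp (0.293), Cxcl5 (0.213) and Cxcl3 (0.166). The ranges of each neighbouring pair in this order overlapped over the 3 libraries. In the dKO-labelled libraries the order was Cxcl1 (0.886), Cxcl2 (0.782), Cxcl3 (0.212), Ppbp (0.137) and Cxcl5 (0.0202). Neighbours again overlapped except Ppbp and Cxcl5, both at 3 counts or fewer in every library. On the same scale the mean of Cxcr2 was below those of all 5 ligands in the controls, at 0.119 CPM per kb, and above all 5 in the dKO-labelled libraries, at 10.9. The control order did not hold in replicate 3, where Cxcr2 was at 0.107 CPM per kb and Cxcl3, Cxcl5 and Ppbp were at 0. The control means of these 3 ligands come from replicates 1 and 2, the libraries with the high background.

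Among chemokine receptors the place of Cxcr2 changed more than that of any other of the 23 compared. By mean CPM per kb of exon it was at rank 21 in the controls and at rank 2 in the dKO-labelled libraries, behind Ackr3 at 20.9. Its range there, 8.32 to 15.1, overlapped those of Ackr4 (7.97 to 11.9) and Ccr4 (7.05 to 12.6), the next in order, and lay above that of Cxcr6 (6.54 to 7.80). Cxcr1 was at rank 23 in the controls and rank 13 in the dKO-labelled libraries. Ranks are a description of these means.

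**Figure D2:**
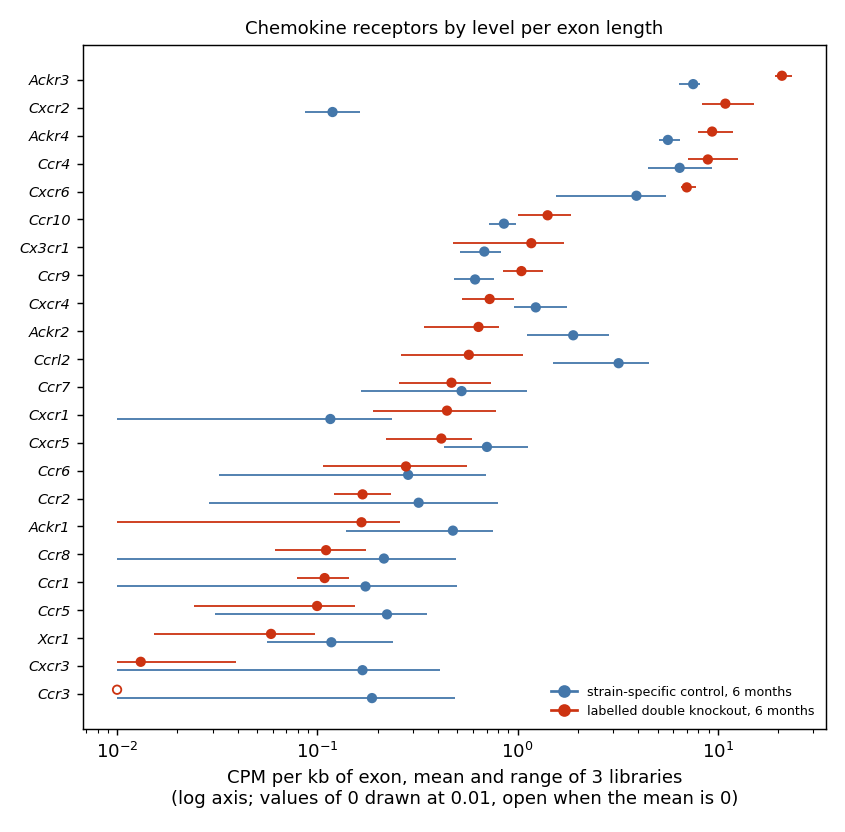
Mean level of 23 chemokine receptors in CPM per kb of exon (log axis) with the range of 3 libraries, ordered by the dKO-labelled libraries. Cxcr2 stands at 0.119 in the controls and 10.9 in the dKO-labelled libraries, a wider gap on the log axis than for the other receptors with counts in both groups.

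The other chemokine receptors, whose values were not used to choose the members, were tested. This list, like the others, was chosen with earlier results of these data known. Of 21 genes, 14 passed the filter, 2 were past the threshold as higher and 2 as lower, with a median log2 fold change of 0.090. Ackr3, a scavenging receptor that takes up Cxcl12, rose from 25.2 ± 3.38 to 69.9 ± 7.30 CPM (mean ± SD, n = 3 a group, log2 difference 1.39 with SE 0.17, adjusted p 0.00150 by edgeR). It held 27.0, 27.3 and 21.3 CPM among controls and 64.9, 66.5 and 78.3 CPM among dKO-labelled libraries, without overlap. Ackr4, which scavenges Ccl19, Ccl21 and Ccl25, rose from 29.7 ± 3.80 to 49.4 ± 11.6 CPM (n = 3 a group, log2 difference 0.66, adjusted p 0.0492 by edgeR). Ccrl2, a non-signalling receptor for chemerin, fell from 8.30 ± 4.02 to 1.48 ± 1.11 CPM (n = 3 a group, log2 difference -2.47, adjusted p 0.0220 by edgeR). Ackr2, which scavenges inflammatory CC chemokines, fell from 5.92 ± 2.80 to 1.99 ± 0.803 CPM (n = 3 a group, log2 difference -1.59, adjusted p 0.0440 by edgeR). Each named call was refitted under 15 alternatives (other scalings, filters, tools and fits, and each library left out in turn), and Ackr3 passed in all 15. Ccrl2 lost the threshold in 5 of them (-2.39 to -1.39), among them without control replicate 1 or 2 or without dKO-labelled replicate 2 or 3, and Ackr4 in 10 (0.48 to 0.81) and Ackr2 in 11 (-2.17 to -1.09), each without any 1 of the dKO-labelled libraries among others, Ackr4 also without control replicate 1 or 2 and Ackr2 without control replicate 2 or 3.

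Other chemokine ligands that passed the threshold were lower. Among 11 further CXC and CX3C chemokines 5 passed the filter, 2 fell and none rose in edgeR's test. The shares over all genes tested were 8.59% lower and 6.26% higher. At an unadjusted p under 0.05 there were 3 lower and 0 higher, and DESeq2 and limma-voom also called 0 as higher. The median log2 fold change was -0.76. Cxcl14, which epidermis makes at rest, fell from 99.1 ± 28.1 to 41.6 ± 20.8 CPM (n = 3 a group, log2 difference -1.31, adjusted p 0.0441 by edgeR). Cxcl16, the ligand of Cxcr6, fell from 101 ± 28.6 to 55.6 ± 15.1 CPM (n = 3 a group, log2 difference -0.93, adjusted p 0.0387 by edgeR). The dKO-labelled libraries lay below every control for both. Cxcl14 lost the threshold in 7 of 15 alternatives (-1.51 to -1.01), among them without any 1 of the controls or without dKO-labelled replicate 1 or 2. Cxcl16 lost it in 5 (-0.89 to -0.69), among them without control replicate 1 or dKO-labelled replicate 1 or 2.

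Of 20 CC and XC chemokines 9 passed the filter, and 2 were past the threshold, both lower, with a list median of -1.28. At an unadjusted p under 0.05, 4 were lower and 2 higher, and DESeq2 and limma-voom called 0 as higher. Ccl27a, a skin chemokine of keratinocytes that draws T cells through Ccr10, fell from 54.8 ± 6.78 to 13.9 ± 0.209 CPM (n = 3 a group, log2 difference -2.04 with SE 0.16, adjusted p 0.000202 by edgeR). Its values were 48.4, 54.1 and 61.9 CPM among controls and 14.1, 13.7 and 13.9 CPM among dKO-labelled libraries, and it passed in all 15 alternatives. Ccl20, the ligand of Ccr6 and like Cxcl1 an NF-kB target of keratinocytes, held 3.99, 2.56 and 12.6 CPM against 1.30, 0.818 and 1.97 CPM (log2 difference -2.17, adjusted p 0.0397 by edgeR). It lost the threshold in 7 alternatives (-2.49 to -1.17), among them without control replicate 1 or 3 and without any 1 of the dKO-labelled libraries.

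Genes that carry or regulate the signal of CXCR2 in the cell changed in both directions. Of 26 found, all passed the filter, 1 was past the threshold as higher and 4 as lower, with a median log2 fold change of -0.20. Over all genes tested, 6.26% were past it as higher and 8.59% as lower. Rgs2, a regulator that shortens G protein signals, fell from 268 ± 63.6 to 61.5 ± 21.8 CPM (n = 3 a group, log2 difference -2.21 with SE 0.27, adjusted p 0.00190 by edgeR). It held 325, 281 and 199 CPM among controls and 86.4, 46.0 and 52.0 CPM among dKO-labelled libraries, without overlap. Among the inhibitory G protein alpha subunits, Gnai1 rose from 142 ± 23.3 to 214 ± 15.5 CPM (n = 3 a group, log2 difference 0.51, adjusted p 0.0472 by edgeR) and Gnai3 fell from 276 ± 35.4 to 198 ± 11.6 CPM (n = 3 a group, log2 difference -0.55, adjusted p 0.0280 by edgeR). Gnai2, the form prominent in leukocytes, held 104, 121 and 121 CPM among controls and 121, 114 and 114 CPM among dKO-labelled libraries, and was named after its values were seen. Gng12, a gamma subunit, fell from 311 ± 10.6 to 225 ± 16.9 CPM (n = 3 a group, log2 difference -0.54, adjusted p 0.0202 by edgeR). Arrb1, an arrestin that ends receptor signalling, was the other gene past the threshold (log2 difference -0.54, adjusted p 0.0444 by edgeR), named after its value was seen.

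Of these only Rgs2 passed with any 1 library left out. Gnai1 lost the threshold in 9 of 15 alternatives (0.41 to 0.59), Gnai3 in 9 (-0.63 to -0.42), Gng12 in 8 (-0.57 to -0.43) and Arrb1 in 11 (-0.71 to -0.36). Each did so without any 1 of the dKO-labelled libraries, Gnai1 also without control replicate 2, Gnai3 and Arrb1 without control replicate 1 or 3, and Gng12 without control replicate 1 or 2. With control replicate 3 as the only control Rgs2 too was no longer past it, at -1.75.

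Cytokines, receptors and NF-kB genes that act upstream of the ligands changed in both directions. Of 30 found, 23 passed the filter, 2 rose and 4 fell, with a median log2 fold change of -0.13. Among all genes tested, 6.26% were past the threshold as higher and 8.59% as lower. With an unadjusted p under 0.05, 5 genes of the list were higher and 6 lower. Both that rose belong to the interleukin 36 system, an epithelial branch of the interleukin 1 family. Il1rl2, which encodes the receptor for interleukin 36, rose from 222 ± 24.3 to 593 ± 75.6 CPM (n = 3 a group, log2 difference 1.34 with SE 0.14, adjusted p 0.000875 by edgeR), with 234, 194 and 238 CPM among controls and 673, 584 and 523 CPM among dKO-labelled libraries. Il1f9, which encodes interleukin 36 gamma, rose from 47.4 ± 10.6 to 120 ± 52.5 CPM (n = 3 a group, log2 difference 1.26, adjusted p 0.0297 by edgeR). Il1rl2 passed in all 15 alternatives. Il1f9 lost the threshold in 5 (1.11 to 1.43), among them without control replicate 1 or 2 or dKO-labelled replicate 1.

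The genes of this list that fell are themselves NF-kB targets or components, but not all NF-kB genes of the list were lower. Nfkbiz held 497, 393 and 538 CPM among controls and 794, 559 and 595 CPM among dKO-labelled libraries. Its groups did not overlap, as in 22.5% of all genes tested, and it was not past the threshold. Nfkb1 and Rela overlapped between groups. These genes were named after their values were seen. Tnfaip3, which encodes the inhibitor A20, fell from 444 ± 47.8 to 152 ± 41.8 CPM (n = 3 a group, log2 difference -1.62 with SE 0.20, adjusted p 0.00167 by edgeR). Nfkbia, which encodes the inhibitor IkB alpha, fell from 479 ± 55.1 to 226 ± 62.6 CPM (n = 3 a group, log2 difference -1.16 with SE 0.21, adjusted p 0.00850 by edgeR). In both, every dKO-labelled library lay below every control, and both passed in each alternative except that with control replicate 3 as the only control (-1.42 and -1.05). Tnf fell from 17.4 ± 5.76 to 8.73 ± 2.01 CPM (n = 3 a group, log2 difference -1.06, adjusted p 0.0397 by edgeR), with overlapping groups. Relb, an NF-kB subunit named after its value was seen, was the other (log2 difference -0.76, adjusted p 0.0495 by edgeR). Tnf lost the threshold in 8 alternatives (-1.33 to -0.81), among them without control replicate 2 or 3 or any 1 of the dKO-labelled libraries. Relb lost it in 11 (-0.91 to -0.59), among them without any 1 of the controls or dKO-labelled replicate 1 or 2. The neutrophil growth factor gene Csf3, named after its values were seen, held 17, 10 and 2 counts against 0, 0 and 2. Nearly all its control counts came from replicates 1 and 2, the libraries with the high background. Control replicate 3 and dKO-labelled replicate 3 held the same count, 2.

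**Figure D3:**
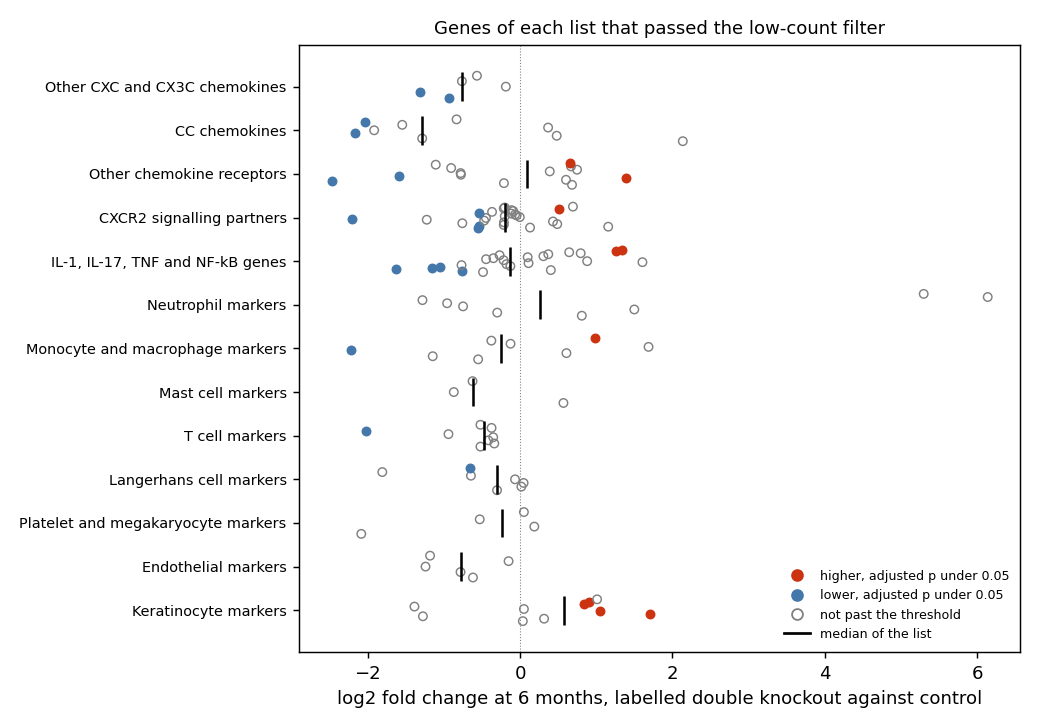
Log2 fold change at 6 months for every gene of 13 lists that passed the low-count filter, with filled points for genes past an adjusted p of 0.05 in edgeR's test and a bar at each list's median. The medians run from -1.28 for CC chemokines to 0.58 for keratinocyte markers, and the neutrophil markers S100a8 and S100a9 lie far to the right without passing the threshold.

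The neutrophil markers differed among themselves in the dKO-labelled libraries. Some were at 0, and only S100a8 and S100a9 lay above every control, as did 22.5% of all genes tested. In a bulk sample, fewer cells of a type and less RNA per cell cannot be told apart. Of 20 neutrophil markers 8 passed the filter and none was past the threshold in edgeR's test. At an unadjusted p under 0.05 there were 2, S100a8 and S100a9, both higher, and DESeq2 called 2 higher and limma-voom 0. In the dKO-labelled libraries the granule genes Mpo, Elane and Prtn3 held 0 counts in all 3, which allows up to 0.217, 0.205 and 0.169 CPM in replicates 1, 2 and 3. In control replicates 1, 2 and 3, Mpo held 4, 27 and 2 counts, Elane 5, 10 and 0, and Prtn3 6, 5 and 0. Ly6g, the standard surface marker, held 1, 0 and 0 counts against 2, 4 and 0 in the controls, and Retnlg 0, 4 and 2 against 3, 6 and 0. Nearly all control counts of these 5 genes came from replicates 1 and 2, the libraries with the high background. Mmp8, which encodes a neutrophil collagenase, held 15, 10 and 16 counts against 5, 10 and 0 in the controls, and Lcn2, an antimicrobial protein gene that keratinocytes also express, held 19, 11 and 195 against 21, 20 and 11. Both were named after their values were seen, and Mpo, Elane, Prtn3, Ly6g, Retnlg and Csf3r were also named outside the naming rule given below. The receptor gene Csf3r held 1.91, 3.00 and 0 CPM among controls and 1.88, 0.0682 and 0.958 CPM among dKO-labelled libraries. Between 9 and 12 of the 20 markers had at most 3 counts in these libraries, against 4, 2 and 15 in control replicates 1, 2 and 3. The part of neutrophils in the level of Cxcr2 was not tested.

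S100a8 and S100a9, which encode the calprotectin subunits that neutrophils and stressed keratinocytes both make, were higher in every dKO-labelled library without passing the threshold. S100a8 held 2.08, 0.265 and 0.0651 CPM among controls and 24.0, 4.23 and 171.9 CPM among dKO-labelled libraries (log2 difference 6.14 with SE 2.07, adjusted p 0.119 by edgeR). S100a9 held 0.581, 0.707 and 0.326 against 7.60, 2.52 and 70.8 CPM (log2 difference 5.30 with SE 1.64, adjusted p 0.0797 by edgeR). Replicate 3, the highest in both, was the lowest of its group in Cxcr2. The marker with the most counts, Il1r2, held 68.3, 67.6 and 52.8 CPM against 49.8, 60.0 and 51.7 CPM, with overlapping groups. Summed over the list, the controls held 83.5, 89.1 and 55.7 CPM and the dKO-labelled libraries 88.5, 70.0 and 310.0 CPM.

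**Figure D4:**
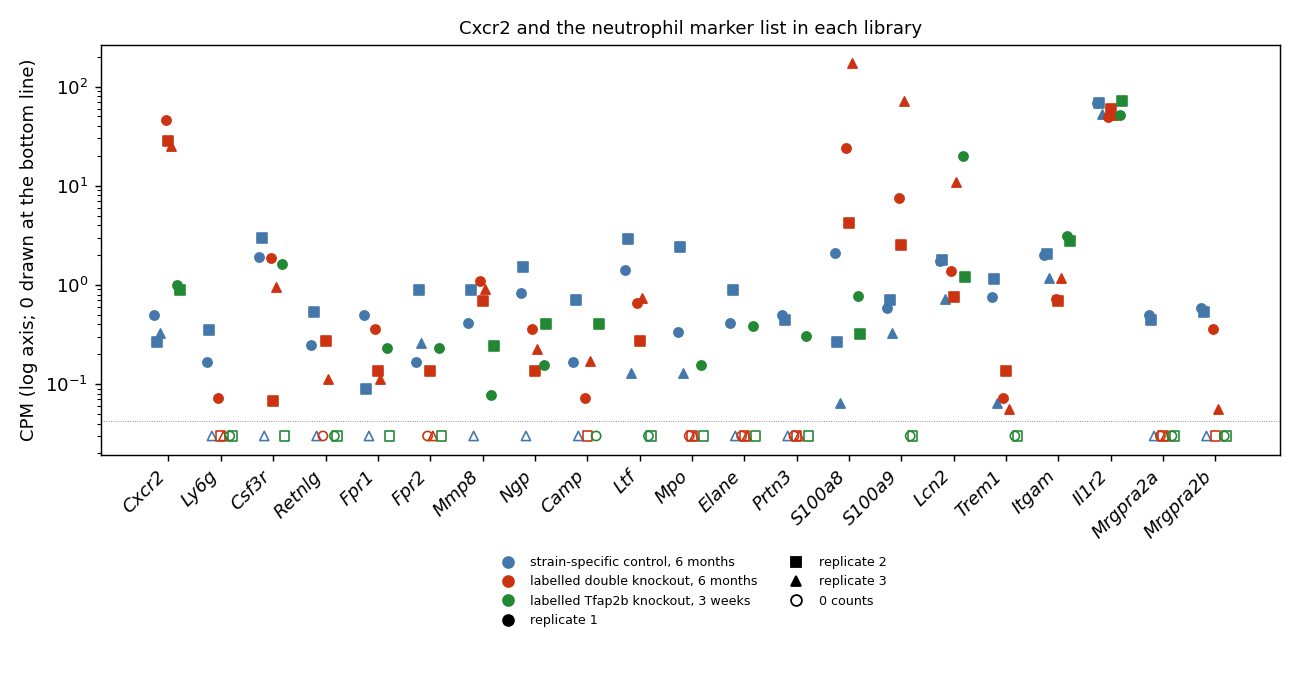
Cxcr2 and 20 neutrophil markers in CPM (log axis), 1 point per library, with open symbols for 0 counts. In the dKO-labelled libraries Cxcr2 lies at 25.4 to 45.9 CPM, and S100a8 ranges from 4.23 to 171.9 CPM. Mpo, Elane and Prtn3 are at 0 in all 3 of them. In control replicate 3, Mpo is at 0.130 CPM, and Elane and Prtn3 are at 0.

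Other cells that can carry CXCR2 or make its ligands were represented as follows. Among 12 monocyte and macrophage markers 8 were tested. Of these, 1 rose and 1 fell, against 6.26% and 8.59% of all genes tested. With an unadjusted p under 0.05 there were 3 higher and 2 lower. DESeq2 called 1 higher and 1 lower, and limma-voom 1 higher and 0 lower. The gene that fell, Mrc1, a marker of tissue macrophages, went from 1.88 ± 1.46 to 0.315 ± 0.135 CPM (n = 3 a group, adjusted p 0.0484 by edgeR) and lost the threshold in 11 of 14 alternatives (-2.41 to -1.09), among them without control replicate 1 or 2 or any 1 of the dKO-labelled libraries. Its control counts were 16, 40 and 12, highest in replicate 2, which had the highest background. Csf1r, expressed by Langerhans cells and macrophages, was at 14.3, 23.5 and 26.4 against 40.5, 32.9 and 30.0 CPM (edgeR adjusted p 0.105). Its groups did not overlap, as in 22.5% of all genes tested. Lyz2 was at 9.05, 13.5 and 5.92 against 8.91, 6.75 and 7.38 CPM. C1qa held 9, 8 and 2 against 28, 34 and 34 counts, while C1qb and C1qc overlapped between groups. These C1q genes were named after their values were seen. The part of these cells in the level of Cxcr2 was not tested.

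No marker of mast cells (10 genes, 3 tested), platelets (9 genes, 4 tested) or endothelium (8 genes, 5 tested) was past the threshold in edgeR's test. At an unadjusted p under 0.05 there were 0, 1 (Itgb3, lower, named after its value was seen) and 0, DESeq2 called 0, 1 and 0, and limma-voom called none. The mast cell gene with the most counts, Mrgprb2, held 29.1, 33.7 and 31.8 CPM against 26.4, 27.3 and 11.1 CPM, followed by Kit and Hdc. Of the platelet list the most abundant were Itga2b, Gp1bb and Gp1ba, each with a mean under 6 CPM in both groups. Of the T cell list (8 of 9 tested) 1 fell, Cd8a, from 3.00 ± 1.78 to 0.679 ± 0.378 CPM (n = 3 a group, adjusted p 0.0488 by edgeR), a call lost in 10 alternatives (-2.37 to -0.95), among them without control replicate 1 or 2 or any 1 of the dKO-labelled libraries. The leading T cell genes Cd3e, Trdc and Cd3g overlapped between groups. Of the Langerhans cell list (7 tested) 1 fell, H2-Ab1, from 138.6 ± 16.5 to 92.6 ± 20.9 CPM (n = 3 a group, adjusted p 0.0342 by edgeR), a call lost in 7 alternatives (-0.67 to -0.48), among them without control replicate 1 or 2 or dKO-labelled replicate 2 or 3. H2-Aa and Cd74 overlapped between groups.

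Of the 10 keratinocyte markers 4 rose and 0 fell in edgeR's test. At an unadjusted p under 0.05 there were 4 higher and 2 lower, and DESeq2 and limma-voom each called 4 higher and 1 lower. Krt14 rose from 1230 ± 247 to 4236 ± 735 CPM (n = 3 a group, adjusted p 0.000969 by edgeR), Krt1 from 1279 ± 296 to 2774 ± 400.0 CPM (edgeR adjusted p 0.00810) and Krt5 from 2615 ± 248 to 5129 ± 829 CPM (edgeR adjusted p 0.00860). Dsg3, named after its value was seen, was the other, with a log2 fold change of 0.84 (edgeR adjusted p 0.00986). Krt14 and Dsg3 passed in all 15 alternatives, and Krt1 and Krt5 in all except that with control replicate 3 as the only control (0.72 and 0.77). The markers lower at an unadjusted p were Krt15 and Lor, named after their values were seen. Krt15, a keratin of basal and hair follicle cells, held 728, 1164 and 1187 CPM against 234, 673 and 330 CPM (log2 difference -1.39 with SE 0.39, adjusted p 0.0513 by edgeR). Lor, which encodes the cornified envelope protein loricrin, held 742, 319 and 307 CPM against 101, 275 and 219 CPM (log2 difference -1.27 with SE 0.49, adjusted p 0.131 by edgeR). In both, every dKO-labelled library lay below every control without the adjusted p passing the threshold. The part of keratinocyte content in the level of Cxcr2 was not tested.

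Of the genes beside Cxcr2 that could be tested, Tns1, Rufy4 and Arpc2, none passed the threshold in edgeR's test. Of the protein-coding genes that start within 100 kb, Tns1 starts 29.5 kb and Rufy4 28.4 kb upstream, and Cxcr1 40.6 kb and Arpc2 82.1 kb downstream of the Cxcr2 start. Rufy4, which lies next to Cxcr2 on the same strand, held 49, 42 and 29 counts among controls and 45, 28 and 35 in the dKO-labelled libraries (log2 difference -0.49 with SE 0.46, adjusted p 0.468 by edgeR). Tns1, which encodes the focal adhesion protein tensin 1, had a log2 difference of 0.31 with SE 0.16 (adjusted p 0.213 by edgeR), and Arpc2, of the actin-nucleating Arp2/3 complex, of -0.12 with SE 0.12 (adjusted p 0.529 by edgeR). Tns1 held 92.0, 127 and 141 CPM among controls and 148, 157 and 166 CPM among dKO-labelled libraries. Every dKO-labelled library thus lay above every control, as in 22.5% of all genes tested. No gene of the files overlapped the span of any of the 7 members on either strand.

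**Figure D5:**
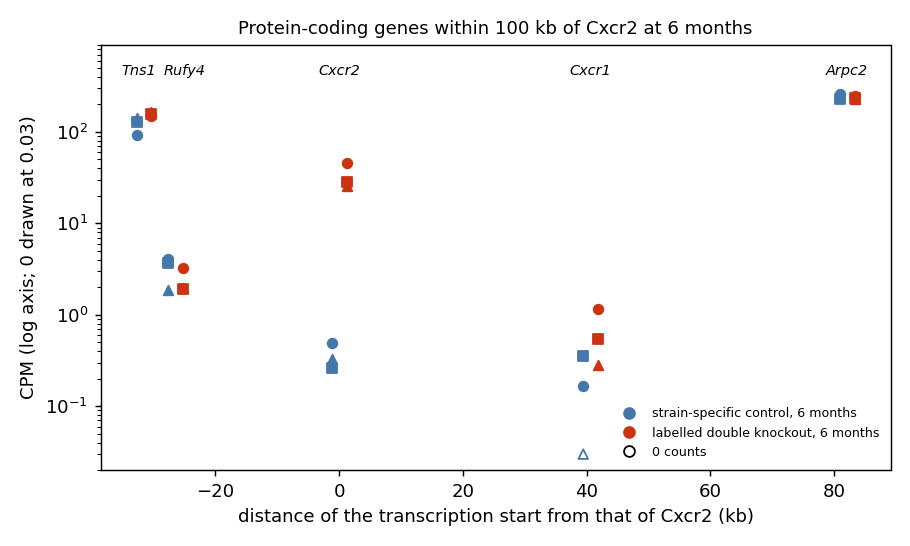
Level of each protein-coding gene starting within 100 kb of the Cxcr2 start at 6 months, in CPM (log axis) against distance in kb, 1 point per library, with points shifted sideways by up to 3.2 kb so that they can be told apart. Cxcr2 is the gene whose groups lie far apart. Every dKO-labelled point of Tns1 lies above every control by less, and the points of Rufy4 and Arpc2 overlap between groups.

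Other genes lie among the ligand genes. Cxcl15 encodes lungkine, a further ELR chemokine best known from lung, and lies between Cxcl3 and Cxcl1. It held 63, 94 and 45 counts among controls and 69, 68 and 98 in the dKO-labelled libraries (log2 difference -0.19 with SE 0.40, adjusted p 0.770 by edgeR). Per kb of exon its level was above that of each of the 5 ligand members in all 6 of those libraries. It held 0 counts in both libraries from 3-week-old mice, which allows up to 0.231 and 0.240 CPM. Pf4, the platelet factor gene between Ppbp and Cxcl3, held 9, 12 and 1 counts against 0, 0 and 1. The unclassified transcript Gm43085, next to Cxcl15, held 10, 24 and 5 counts against 13, 10 and 17, and likewise 0 in both 3-week libraries. These libraries differ from the others in age as well as genotype, which cannot be told apart. The lincRNA Gm43086 held 6, 12 and 0 counts among controls and 0 in the other 5 libraries. Its control counts all came from replicates 1 and 2, the libraries with the high background, as did nearly all those of Pf4.

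The genes most like Cxcr2 over the 8 libraries, of 15197 protein-coding genes compared, were Teddm3, Polr1a, Serpinb6a, Rps6ka4 and Rfng. Their Pearson correlations with it, on log2(CPM + 0.1), ran from 0.985 to 0.989. The libraries fall into 2 sets for Cxcr2, the dKO-labelled libraries and the rest, and in each of these 5 genes, too, the lowest dKO-labelled library lay above the highest of the rest. Teddm3, at 1.33, 0.442 and 0.781 CPM in the controls, 20.6, 13.3 and 19.4 CPM among dKO-labelled libraries and 1.31 and 1.36 CPM in the 3-week libraries, had a change of several log2 units as Cxcr2 did (log2 fold change 4.10). In the other 4, the log2 fold changes were 1.05 to 1.43.

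The highest levels of Cxcl1, Cxcl2, Cxcl3 and Cxcl5 in the 8 libraries were in a single one. Replicate 1 labelled Tfap2b knockout, from 3-week-old mice, held 1040 counts of Cxcl1, 415 of Cxcl2, 33 of Cxcl3 and 70 of Cxcl5, or 80.2, 32.0, 2.54 and 5.40 CPM. Replicate 2 of the same group held 5, 14, 0 and 0 counts. Ppbp was at 1 and 0 counts in the 2 libraries. In the same replicate 1, the summed endothelial markers were at 567 CPM, against 0.559 CPM in replicate 2, 5.92 to 28.8 CPM among controls and 7.23 to 9.78 CPM among dKO-labelled libraries. All 8 endothelial markers were detected in it, while 6 of 8 were at 0 in replicate 2. Other inflammatory transcripts were also high there: Ccl2 at 78.2 CPM, Il6 at 13.7 CPM and Csf3 at 10.1 CPM, against 0.559, 0 and 0.240 CPM in replicate 2. The part of endothelial and other non-keratinocyte cells in these ligand levels was not tested. Cxcr2 did not share the pattern, at 1.00 and 0.879 CPM.

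The genes most like Cxcl1 were Oaf, Lama4 and Lix1l (r = 0.974, 0.952 and 0.951 over 8 libraries), and those most like Cxcl2 were Rusc2, Ubd and Cnp (r = 0.972, 0.968 and 0.967). These values lean on that library. Without it, over 7 libraries, they were 0.919, 0.817 and 0.814 for Cxcl1 and 0.861, 0.919 and 0.868 for Cxcl2. Lama4, which encodes a laminin chain of vessel walls, was at 128.8 CPM in that library and at 1.98 to 12.2 CPM in the other 7.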

How the data were processed

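Ribosomal RNA-depleted libraries of total RNA were read as paired 150-base reads, per the labels' protocols. The values the authors deposited are whole-number counts per gene, not normalized. Trimmomatic 0.36, STAR 2.5.2b, featureCounts of Subread 1.5.2 and the build GRCm38 (GRCh38 is also listed) are named in the submitters' processing notes. The strand setting and the treatment of reads that map to several places are not given in the sources used here. Symbols were taken from GENCODE M21, which held 49056 of the 49315 identifiers. Libraries were grouped by their titles.

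CPM were computed from the counts and the library totals. Genes were tested with edgeR 4.0.16 in R 4.3.3 (filterByExpr with a minimum count of 10, TMM, glmQLFit with robust = TRUE, glmQLFTest, prior count 2, Benjamini-Hochberg adjustment over 17755 genes, threshold 0.05). The 7 members, the 13 gene lists and the alternatives were chosen with earlier results of these data known. Named genes were the members, up to 3 genes per list and direction with the largest change past the threshold, the 3 most abundant markers of each immune or platelet list, the genes near the members, and the genes most like Cxcr2, Cxcl1 and Cxcl2. Tfap2a and Tfap2b were named as the targeted genes. Other genes named outside this rule are marked as such, except Cdh5, Pecam1, Ccl2 and Il6, which were also named outside it. The result for 1 gene of the monocyte and macrophage list is not reported here. Nherf1 and Il36rn of the lists were not matched. Alternatives were median-ratio factors, total counts, no filter, DESeq2 1.42.0, limma-voom (limma 3.58.1), a replicate block, all libraries in one fit, subtraction of the receptor-gene background and each library left out. Control replicate 3 as the only control was added after seeing the data. Intervals and floors (3 counts for a count of 0) cover counting error only, since reads without molecular identifiers are not independent molecules. On simulated counts with 200 genes changed 4-fold in this design, 131 of the 184 changed genes tested were called, among 137 calls in 17237 genes.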

Additional observations from a re-analysis of the deposited data

Results flagged for a closer look

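Values of the members in the 2 libraries labelled Tfap2b knockout, which entered no comparison, were above every 6-month control in 6 cases. Replicate 1 held 80.2 CPM of Cxcl1, 32.0 CPM of Cxcl2, 2.54 CPM of Cxcl3 and 5.40 CPM of Cxcl5, against at most 1.94, 1.25, 1.41 and 0.747 CPM in the controls. Cxcr2 was at 1.00 CPM in replicate 1 and 0.879 CPM in replicate 2, against at most 0.498 CPM in the controls. These libraries differ from the controls in both age and genotype, which cannot be told apart.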

How the results depend on the processing

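The replicate numbers did not pair the samples (correlations of same-numbered deviations 0.027, -0.16 and -0.059), and a replicate block gave 720 higher and 1009 lower genes against 1111 and 1526. It gave 0 higher and 2 lower CXCR2 signalling partners and 1 higher and 1 lower chemokine receptor. Without a filter, 1941 genes were higher and 2868 lower, with 1 CC chemokine higher, 3 signalling partners higher and 2 lower, 4 genes of the interleukin and NF-kB list higher, and 1 neutrophil marker higher and 1 lower. All libraries in one fit gave 658 higher and 890 lower genes, 1 lower CC chemokine, 0 higher and 1 lower signalling partner, 1 higher and 2 lower genes of the interleukin and NF-kB list, 0 lower CXC chemokines, and 1 higher and 1 lower receptor. Control replicate 3 as the only control, which is assumed to vary like the other group, gave 195 higher and 242 lower genes, 0 lower CXC chemokines, 1 higher and 0 lower receptors, 0 signalling partners either way, 1 higher and 0 lower genes of the interleukin and NF-kB list, and log2 fold changes of 1.89 for Cxcl2 and 2.75 for Cxcl3. DESeq2 gave 6.44 for Cxcr2, 2 higher signalling partners, 4 higher genes of the interleukin and NF-kB list and 2 higher neutrophil markers. With the background subtracted, Cxcr2 was at 6.73, with 0 higher signalling partners and 1 lower receptor. Limma-voom gave 1 lower CC chemokine, 2 lower genes of the interleukin and NF-kB list, and 1 higher and 1 lower receptor. Median-ratio factors gave 0 higher signalling partners, and total counts gave 4 higher genes of the interleukin and NF-kB list and 1 lower receptor. The cause of these differences was not tested.

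With 1 library left out in turn, the count of higher genes ran from 313 (without dKO-labelled replicate 1) to 2733 (without control replicate 3), and that of lower genes from 355 to 4811 with the same libraries. Cxcr2 ran from 5.72 to 6.20, Cxcl1 from -0.57 to 0.53, Cxcl2 from 0.35 to 1.32 and Cxcl3 from -0.35 to 1.54. Called CC chemokines ran from 1 to 2 lower, CXC chemokines from 0 to 3 lower, receptors from 1 to 3 higher and 0 to 1 lower, signalling partners from 0 to 3 higher and 1 to 3 lower, interleukin and NF-kB genes from 1 to 6 higher and 2 to 4 lower, and neutrophil markers from 0 to 1 higher and 0 to 2 lower. Of the 27 genes past the threshold that were refitted under each alternative, 5 passed in every alternative run and 0 changed sign. Counts under about 10 per library limit Cxcr1, Cxcl5 and Ppbp, and the 3-week libraries entered no comparison.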
